A study of Mus musculus with 4 samples.

Results

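The collagen, laminin and integrin genes of the mouse encode the fibres and sheets of the extracellular matrix and the receptors that hold cells to them. They were taken from the GENCODE M21 annotation by symbol, as the protein-coding genes named *Col* with a chain number, *Lama*, *Lamb* or *Lamc*, *Itga* or *Itgb*. This gave 81 of 21938 protein-coding genes, among 55413 annotated genes in all: 44 collagens, 11 laminins, 18 integrin α subunits and 8 integrin β subunits. The question put to them was where open chromatin differed between hearts with and without SMYD1, a histone methyltransferase of striated muscle. ATAC-seq, in which the Tn5 transposase cuts and tags open DNA, was applied to whole embryonic hearts at E9.5 that were wild type (WT) or lacked SMYD1 (*Smyd1-KO*). The null embryos carried the conventional *Smyd1* null allele of a commercial strain, so the deletion was in every cell of the embryo, and embryos of both sexes were used. Each genotype had 2 libraries, each from a pool of 4 hearts that had been frozen, thawed and dissociated with trypsin. The cells were passed through a strainer to hold back connective tissue, and 40000 viable cells were taken. The WT and *Smyd1-KO* pools shared all of these steps and received no treatment.

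Differential peaks, which passed a 2-fold difference in tags, were deposited as a list of 25745 that were higher in *Smyd1-KO* hearts, called gained peaks here, and a list of 106 that were higher in WT hearts. Each peak is 149 bp wide and carries a score, the tags that were pooled over the libraries of its genotype. The lists keep no library apart, and therefore the values below carry no error between replicates, the depth of each library is unknown from them, and no test over replicates was possible. A peak within 3 kb of any annotated transcription start site (TSS) of a gene is called a promoter peak of that gene. Each interval beside a share is an exact Clopper-Pearson 95% interval and covers counting error only. In whole hearts, more open chromatin per cell and more cells of a type cannot be told apart. Among cell type markers, 6 of 8 cardiomyocyte markers, 2 of 7 endothelial or endocardial markers, 1 of 5 primitive blood markers and 3 of 6 epicardial or mesenchymal markers had a gained promoter peak, beside 51.2% of all protein-coding genes. These counts do not check which cells were present, since the lists hold differential peaks alone. The part of cell composition in the results below was not tested. *Smyd1* itself had no promoter peak in either list and 2 gained peaks in its gene body, which does not check the genotype for the same reason.

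Collagens are built from α chains wound into a triple helix. Fibrillar collagens give tissues tensile strength, whereas type IV collagen forms the network of basement membranes together with laminins, which are cross-shaped heterotrimers of an α, a β and a γ chain. Integrins are αβ heterodimers that span the plasma membrane and tie this matrix to the actin cytoskeleton. In the embryonic heart, a basement membrane and the cardiac jelly lie between myocardium and endocardium, and the jelly is remodelled as trabeculae and cushions form.

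Sequences are shown for the highest promoter peaks of the collagens and integrins, and for the peak that a pair of collagen genes share. The peak of *Col5a1* (chr2:27886204-27886352) was the highest of the collagens and lay just upstream of the TSS, at 73 bp from it. Its mm10 sequence is given whole, on the plus strand, which is the strand of the gene, with the match to the GC box GGGCGG on the other strand in capitals.
Col5a1: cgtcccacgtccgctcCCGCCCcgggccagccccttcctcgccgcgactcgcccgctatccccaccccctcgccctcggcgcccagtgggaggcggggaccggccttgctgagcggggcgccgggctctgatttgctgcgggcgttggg

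The peak shared by *Col4a1* and *Col4a2*, and the highest peaks of the α and β integrins, at *Itgav* and *Itgb1*, covered the TSS itself. For these the RefSeq promoter window on GRCm38 is shown on the strand of the gene, from 250 bases before to 50 after the TSS, with the bases that lay in the gained peak in capitals. The RefSeq table held a window for 58 of the 81 genes. The windows are chr8:11312777-11313076 for *Col4a1* on the minus strand, with 59 bases in the peak, chr2:83724147-83724446 for *Itgav*, with 100 bases, and chr8:128685404-128685703 for *Itgb1*, with 57 bases.
Col4a1: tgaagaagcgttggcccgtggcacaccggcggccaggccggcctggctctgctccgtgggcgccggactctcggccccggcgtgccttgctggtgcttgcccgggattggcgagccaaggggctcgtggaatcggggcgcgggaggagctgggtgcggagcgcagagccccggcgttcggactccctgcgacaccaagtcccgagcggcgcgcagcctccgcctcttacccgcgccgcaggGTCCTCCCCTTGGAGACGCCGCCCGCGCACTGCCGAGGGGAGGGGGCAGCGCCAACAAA
Itgav: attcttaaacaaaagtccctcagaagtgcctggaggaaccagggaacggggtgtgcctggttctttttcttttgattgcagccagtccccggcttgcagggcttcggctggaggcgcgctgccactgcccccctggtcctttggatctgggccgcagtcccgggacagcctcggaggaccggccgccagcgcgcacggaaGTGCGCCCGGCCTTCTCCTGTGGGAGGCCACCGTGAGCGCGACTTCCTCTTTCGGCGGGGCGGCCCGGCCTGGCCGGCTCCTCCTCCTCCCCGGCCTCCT
Itgb1: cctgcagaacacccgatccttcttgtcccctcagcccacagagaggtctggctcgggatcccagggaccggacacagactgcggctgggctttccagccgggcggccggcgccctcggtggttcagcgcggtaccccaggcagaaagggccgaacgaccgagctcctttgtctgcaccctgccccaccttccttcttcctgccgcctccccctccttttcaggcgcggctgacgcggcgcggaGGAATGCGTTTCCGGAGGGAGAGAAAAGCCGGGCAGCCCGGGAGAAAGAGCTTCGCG
The *Itgb1* peak began close to the TSS and reached into the first exon, and in its sequence GGAATG, the core that TEAD factors recognise, and CCGGAA, the core of ETS factor sites, were found.

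Of the 81 genes, 42 (51.9%, interval 40.5 to 63.1%) had a gained promoter peak. Over all protein-coding genes the share was 51.2%, close to that of the members when peaks of any score within 3 kb were counted. Within 10 kb it was 56 of 81 members (69.1%) beside 59.6% of all genes, and collagens went from 43.2% to 70.5%. Under stricter rules the members were slightly below all genes, at 45.7% beside 48.1% within 1 kb. With TSSs of coding transcripts the shares were 46.9% and 49.6%, and with the representative TSS alone 43.2% and 46.8%. The families differed in their shares, but the intervals were wide. Laminins had a promoter peak in 8 of 11 genes (72.7%, 39.0 to 94.0%), α integrins in 11 of 18 (61.1%, 35.7 to 82.7%), β integrins in 4 of 8 (15.7 to 84.3%) and collagens in 19 of 44 (43.2%, 28.3 to 59.0%). Each interval takes in the share of all genes. A peak that covered a TSS was present at 20 members (24.7%, 15.8 to 35.5%), beside 27.8% of all protein-coding genes. The genes nearest to the 3 kb limit were *Col15a1*, just inside with a peak at 2648 bp, and *Col20a1*, just outside with a peak at 3796 bp.

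The strongest promoter score of a gene ranged from 63 to 1041.5 over the 42 members, with a median of 313.5 and quartiles of 146 and 426.75. Over all protein-coding genes with a promoter peak the median was 460.5, with quartiles of 292 and 693. Of the 42 members, 10 reached the median of all genes. The near equality in the share of genes with a promoter peak rested on weak peaks as well. When only peaks with a score of at least 180.5, the median of the list, were counted, 28 of the 81 members (34.6%) had one, beside 45.4% of all protein-coding genes. These 10 were *Lamc1*, *Itgb1*, *Col5a1*, *Lama1*, *Lama5*, *Col23a1*, *Itgav*, *Itga2b*, *Col25a1* and *Col6a2*.

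**Figure D1:**
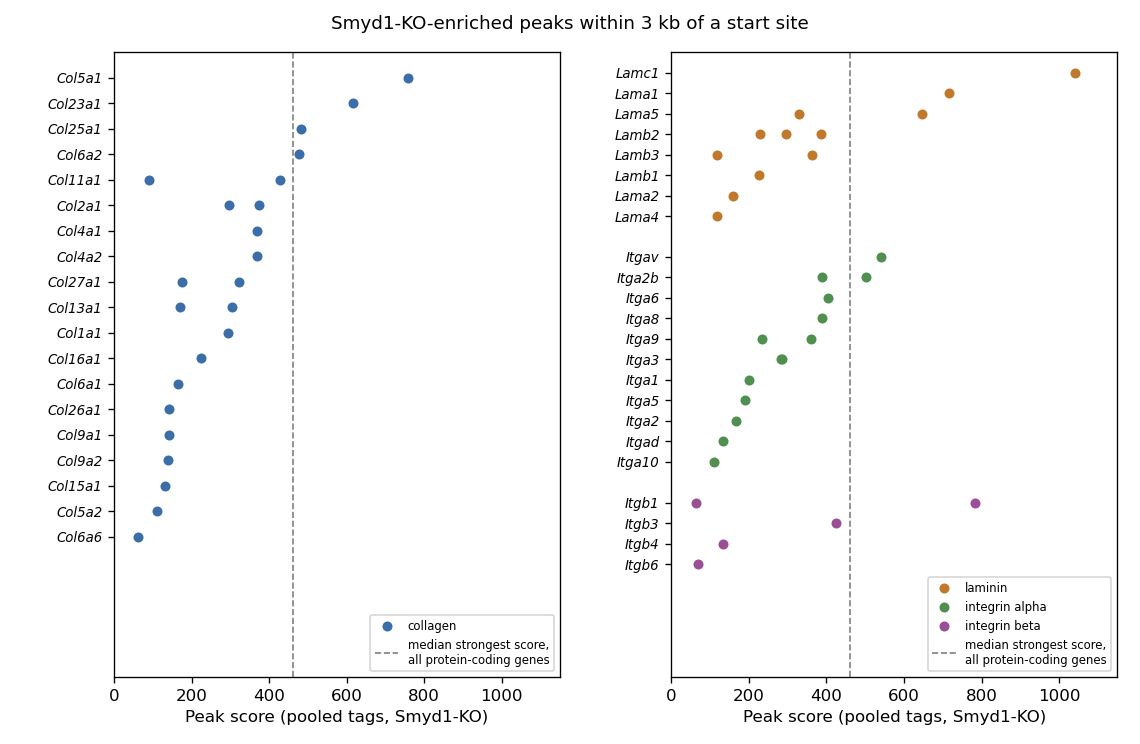
Scores of the gained peaks within 3 kb of a start site, 1 point per peak, for the 42 genes that have one, with collagens on the left and laminins and integrins on the right. The dashed line is the median of the strongest score per gene over all protein-coding genes, 460.5, and 10 of the 42 genes reach it, led by *Lamc1* at 1041.5.

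Among fibrillar collagens, 6 of 11 had a promoter peak (54.5%, 23.4 to 83.3%), close to the 51.2% of all protein-coding genes. *Col5a1*, whose product starts and limits the width of collagen fibrils, had a score of 758. *Col11a1*, a minor fibrillar chain of cartilage and embryonic tissues, had peaks of 427 and 90. *Col2a1*, the main cartilage collagen, had 296 at its TSS and 375 in intron 16, 11.7 kb into the gene near the start of a shorter transcript. *Col27a1* had peaks of 176 and 322.5 on either side of its TSS. *Col1a1*, the α1 chain of type I collagen, had a peak of 293 in intron 1, 518 bp from the nearest annotated start. *Col5a2*, which pairs with the *Col5a1* product, had 112.

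No promoter or gene-body peak was listed for *Col1a2*, whose product joins that of *Col1a1* in type I collagen, nor for *Col3a1*, which encodes type III collagen. *Col5a3* and *Col11a2* had none either, and *Col24a1* had a gene-body peak of 104.5 without a promoter peak. A gene without a listed peak may be equally open in both genotypes or closed in both, since the lists hold differential peaks alone.

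The 6 type IV collagen genes lie as 3 head-to-head pairs, and gained promoter peaks were found at 1 pair. *Col4a1* and *Col4a2*, whose chains form the network found in most basement membranes, start 21 bp apart on opposite strands, with overlapping first bases. A single peak at chr8:11312687-11312835, score 368, covered both TSSs and counts for both genes. The *Col4a3* and *Col4a4* pair, with starts 127 bp apart, and the *Col4a5* and *Col4a6* pair, with starts 1334 bp apart, had no promoter peak. These chains make the networks of specialised membranes such as that of the kidney glomerulus. Inside the genes, *Col4a1* had 3 more peaks, of 206.5 in intron 1, 100 in intron 2 and 98.5 in intron 26. *Col4a2* had 2 more, of 104 and 141.5, and *Col4a3* and *Col4a4* had 1 intronic peak each, of 160.5 and 81. *Col4a5* and *Col4a6* had none.

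Of the 6 type VI collagen genes, which encode beaded filaments around cells, *Col6a2* had a promoter peak of 477, *Col6a1* one of 165.5 and *Col6a6* one of 63. The first 2 of these encode obligate chains of the main trimer, and *Col6a3*, which encodes the remaining chain, had no peak within 3 kb or in its body. The same holds for *Col6a4* and *Col6a5*. Of the 4 transmembrane collagens, 3 had a promoter peak (19.4 to 99.4%), beside 51.2% of all protein-coding genes. These were *Col23a1* at 616, *Col25a1* at 483 and *Col13a1* at 304.5. A further *Col13a1* peak of 171.5 lay in intron 38, 130.3 kb into the gene near the start of a short transcript. *Col17a1*, a hemidesmosome component, had an intronic peak of 156. Among the 9 fibril-associated and related collagens, 3 had a promoter peak (33.3%, 7.49 to 70.1%), an interval that takes in the 51.2% of all genes. They were *Col16a1* at 224, *Col9a1* at 141 and *Col9a2* at 139.5. The *Col16a1* peak also covered the TSS of an antisense transcript, and reads in it cannot be assigned to either promoter. *Col15a1*, a basement membrane zone collagen, had 131.5 and *Col26a1* 142. *Col9a3*, *Col7a1*, *Col10a1* and *Col28a1* had no promoter or gene-body peak.

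Among laminins, 4 of 5 α chain genes (28.4 to 99.5%), 3 of 3 β chain genes (29.2 to 100%) and 1 of 3 γ chain genes (0.84 to 90.6%) had a promoter peak, and each interval takes in the 51.2% of all protein-coding genes. The chains of laminin-111, the first laminin of the embryo, were among them: *Lamc1*, whose γ1 chain is part of most laminins, at 1041.5, *Lama1* at 716.5 and *Lamb1* at 225.5. *Lama5*, the α chain of widely found laminins, had peaks of 647.5 and 328.5. *Lama2*, the chain of the muscle basement membrane, had 158, and *Lama4*, of vascular basement membranes, had 117. *Lamb2* had 229.5 at its TSS and 296 upstream. Another *Lamb2* peak, of 386, lay downstream of the gene and covered the TSS of *Usp19*, a deubiquitinase gene, though it fell within 3 kb of a short *Lamb2* transcript. *Lama3*, an epithelial laminin gene, and *Lamc3* had gene-body peaks of up to 201 and 111.5 but no promoter peak. *Lamb3*, which encodes an epithelial β chain, had promoter peaks of 364 and 117, both at upstream starts, 28.7 and 93.6 kb before the representative TSS. No laminin gene was without a promoter or gene-body peak, but the sole peak of *Lamc3* had 46.6% of its 32-base words repeated in the genome, and without such peaks that gene had none.

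The α integrin genes were read by the ligand of their receptor. All 4 genes of the group that recognises the RGD sequence had a promoter peak (interval 39.8 to 100%, beside 51.2% of all protein-coding genes), 2 of them within 3 kb of the representative TSS. *Itgav*, which pairs with several β subunits, had 539.5 and *Itga8* 389, both over the TSS. *Itga2b*, the platelet and megakaryocyte subunit, had 502 and 387.5, yet these lay 13.7 and 14.1 kb into the gene at the start of a short transcript, and none lay within 3 kb of the main TSS. *Itga5*, the main fibronectin receptor subunit, had 189.5 in intron 2, 7.82 kb into the gene. Of the 3 laminin-binding subunits, *Itga6* had 403.5 and *Itga3* had 285 and 282, whereas *Itga7*, the subunit of differentiated muscle, had no promoter or gene-body peak. Of the 4 collagen-binding subunits, *Itga1* had 201.5, *Itga2* 167.5 and *Itga10* 111, and *Itga11* had an intronic peak of 188 alone. *Itga9* had promoter peaks of 359.5 at its TSS and 233.5 in intron 20, 232 kb into the gene near the start of a short transcript, and *Itga4*, a subunit needed in the epicardium, had none.

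Of the 5 leukocyte subunits, 1 had a promoter peak (0.505 to 71.6%), an interval that takes in the 51.2% of all protein-coding genes. It was *Itgad*, with a peak of 133.5. That peak lay 2346 bp from an *Itgad* start and 19 bp from the TSS of *Cox6a2*, the heart and muscle form of a cytochrome *c* oxidase subunit. *Itgam* and *Itgax* had no peak. The *Itgae* gene-body peak, with a score of 483.5, covered the TSS of *Haspin*, a histone kinase gene that lies within an *Itgae* intron. *Itgal* had an intronic peak of 64.

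Of the β subunits, *Itgb1*, the partner of most matrix-binding α subunits, had 783 at its TSS and 62.5 near the start of an internal transcript. *Itgb3*, the partner of *Itgav* and *Itga2b* products, had 426, *Itgb4*, the hemidesmosome subunit, 134 and *Itgb6*, an epithelial subunit, 68. *Itgb5* had 2 gene-body peaks, of 191.5 and 72, and *Itgb8* 1, of 94, with no promoter peak. The leukocyte subunits *Itgb2* and *Itgb7* had neither.

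Promoters were then divided by CpG content. A promoter was called CpG-rich when the 500 bases to either side of the representative TSS had a ratio of observed to expected CpG of at least 0.6 and a GC content of at least 50%. By this measure 33.3% of the members and 45.5% of all protein-coding genes were CpG-rich. Of the 27 CpG-rich members, 22 had a promoter peak (81.5%, 61.9 to 93.7%), beside 78.7% of such genes overall. Of the other 54 members, 20 had one (37.0%, 24.3 to 51.3%), beside 28.2%. The order in the CpG-rich class depended on its definition. With a ratio of at least 0.4 and no limit on GC, the shares were 61.7% of members and 72.8% of all genes, and with the window from 250 bases before to 50 after the TSS they were 74.1% and 78.2%. In the other class the members were above all genes under each definition, at 38.2% beside 17.9% and 40.7% beside 30.3%. The class was read at the representative TSS, whereas a peak near any TSS of the gene was counted. Of the members in the other class, *Col9a1*, *Lamb3*, *Itga2b*, *Itgad* and *Itgb6* had no peak within 3 kb of the representative TSS. Shares at the classified TSS alone were not compared. By family under the main definition, collagens in that class were level with all genes, at 9 of 32 (28.1%). Laminins, at 5 of 6 (35.9 to 99.6%), were above. The α integrins were at 5 of 12 (15.2 to 72.3%) and the β integrins at 1 of 4 (0.631 to 80.6%). Both of these intervals take in the 28.2% of all genes. If each member had the share of its class among all genes, 36.5 of the 81 would have a promoter peak (45.1%), where 42 were observed. CpG-rich members without a promoter peak included *Col12a1*, *Col8a2* and *Itgb5*, each of which had a gene-body peak. The strongest score also went with the class, with a median of 382 at CpG-rich members and 166.5 at the others. Over all genes these medians were 517.5 and 309.5, so the members were lower in both classes.

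**Figure D2:**
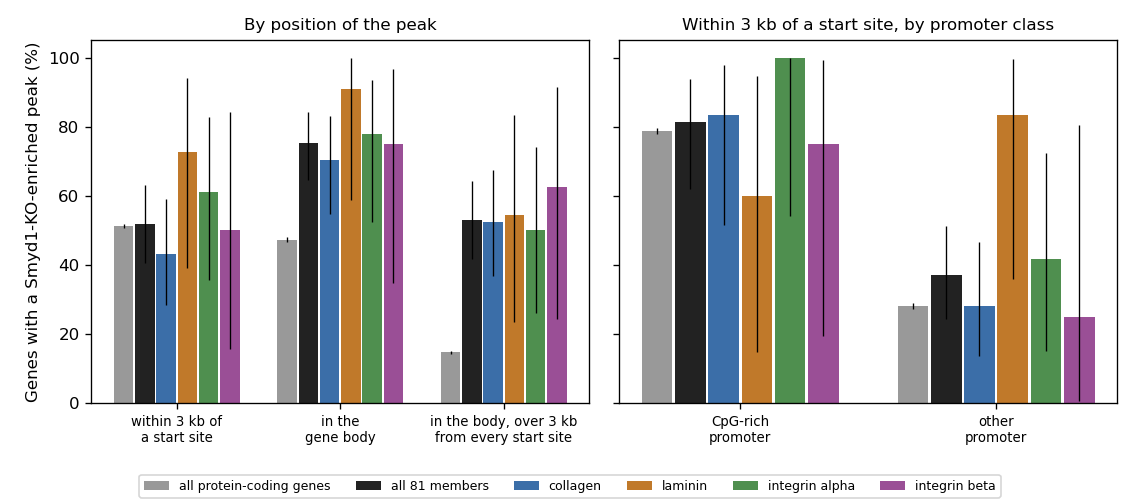
Percentage of genes with a gained peak, by position of the peak (left) and, for peaks within 3 kb of a start site, by CpG class of the promoter (right), for all 21938 protein-coding genes, the 81 members and the 4 families. Bars start at 0 and lines are exact 95% intervals. The members stand beside all genes at promoters, 51.9% and 51.2%, and above them for gene-body peaks far from every start, 53.1% and 14.7%, a contrast that is not matched for gene length (39.1% of all genes when weighted to the members' lengths).

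Gained peaks inside the genes were frequent. In all, 61 of 81 genes (75.3%, 64.5 to 84.2%) had a gained peak in the gene body, beside 47.3% of all protein-coding genes, and 43 (53.1%, 41.7 to 64.3%) had a body peak farther than 3 kb from every annotated TSS, beside 14.7%. With scores of at least the list median, 35 members (43.2%) had a body peak, beside 36.7%. By family, 31 of 44 collagens, 10 of 11 laminins, 14 of 18 α integrins and 6 of 8 β integrins had a body peak of any score. These genes are long, however, with a median length of 82.5 kb against 17.4 kb for all protein-coding genes. When all genes were weighted to the lengths of the members, in 10 length classes, 69.7% would have a body peak and 39.1% one far from every TSS. This corresponds to 56.5 and 31.7 of the 81 genes, where 61 and 43 were observed. The weighting was chosen after the data had been seen. The differences left after this coarse matching of length were not tested.

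The members held 121 body peaks, of which 69 (57.0%) lay farther than 3 kb from every TSS, against 32.9% of body peaks over all genes. At the length-matched rate of all genes they would hold 130.0 body peaks, more than were observed, and 65.4 distant ones, close to the 69 observed. The class of the longest genes ran from 109.9 to 4435 kb, with a median of 186 kb, and held 35 members. Lengths inside that class were not matched, and the effect of this on both differences was not tested. Per 100 kb of gene, members had 1.34 body peaks and all genes 1.58, and for distant peaks the values were 0.765 and 0.520. With scores of at least the list median, 47 body peaks were left, and the densities were 0.521 in members and 0.936 in all genes. Within the families, body peaks per 100 kb came to 1.14 in collagens, 1.15 in laminins, 1.90 in α integrins and 2.5 in β integrins. The counts behind these densities were 61, 19, 28 and 13 peaks. The median gene lengths of the families, in the same order, were 114.4, 113.9, 63.15 and 55.01 kb. The densities were not matched for these lengths.

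**Figure D3:**
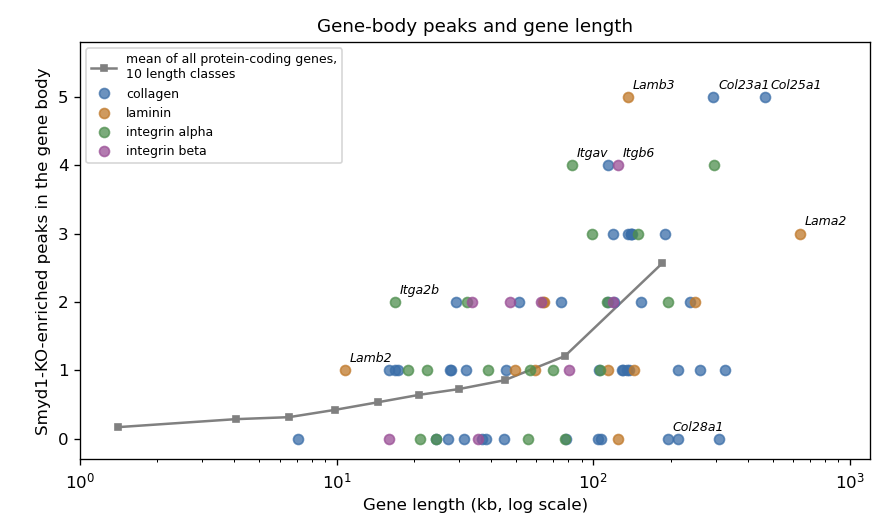
Number of gained peaks in the gene body of each member (coloured points) against gene length on a log scale, with the mean of all protein-coding genes in 10 classes of length (grey line). The members scatter around the line, from 0 peaks in 20 genes to 5 in *Lamb3*, *Col23a1* and *Col25a1*.

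The genes with the most body peaks were *Col23a1*, *Col25a1* and *Lamb3*, with 5 each, and *Col4a1*, *Itgav*, *Itga9* and *Itgb6*, with 4 each. The highest densities of the families were found in genes shorter than the median member. *Itga2b* had 11.9 peaks per 100 kb, *Lamb2* 9.26, *Col2a1* 6.87 and *Itgb4* 5.93. Each of these values rests on 1 or 2 peaks. In *Col23a1* the 4 distant peaks had scores of 44.5 at 74.5 kb, 267 at 169 kb, 84.5 at 181 kb and 311.5 at 250 kb from the start. In *Lama2*, at 640 kb the longest member, both distant peaks were weak, at 39.5 and 46.5. In *Itgb6* the 2 strongest peaks, 181 and 172, lay in intron 1 and exceeded its promoter peak of 68. *Col12a1* had 3 intronic peaks, the strongest of 304 in intron 53, and no promoter peak, and in *Col18a1* the same held for peaks of 327.5 and 189 that lay upstream of the representative TSS but inside the longest transcript.

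**Figure D4:**
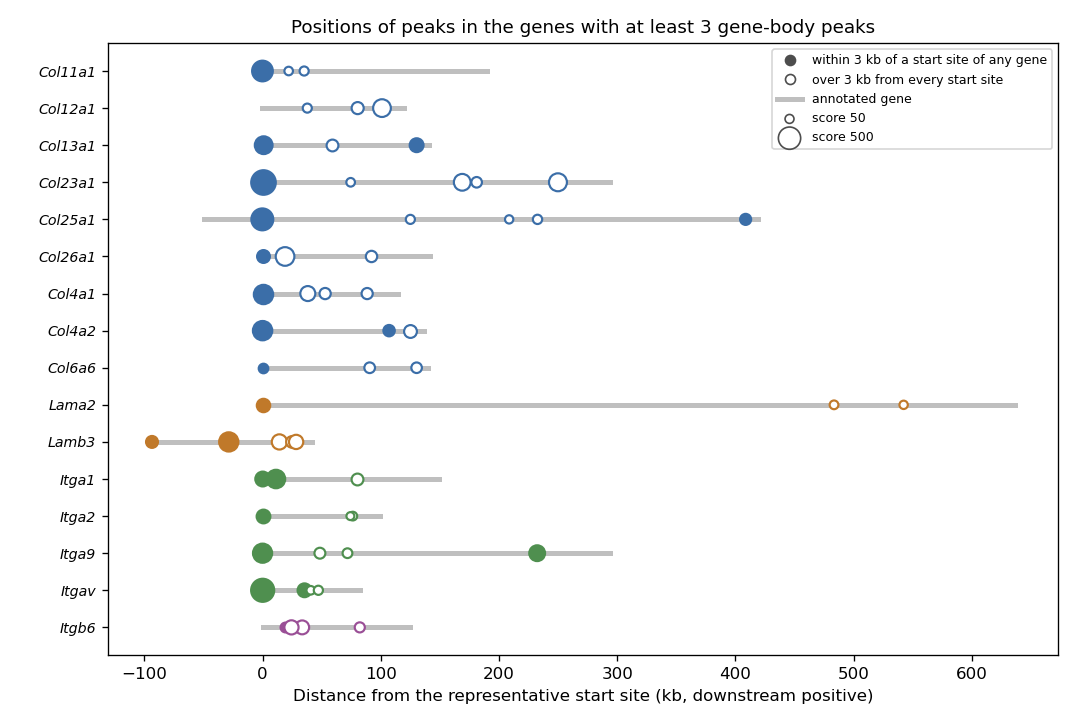
Positions of gained peaks along the 16 genes with at least 3 body peaks, as distance in kb from the representative start site, with point area growing with the score and grey bars marking the annotated gene. The largest point sits at the representative start except in *Col12a1*, *Col26a1*, *Col6a6*, *Itga1* and *Itgb6*, where it lies within the gene, and *Lamb3*, where it lies upstream.

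Across the families, 85 of 121 body peaks lay in introns, 8 in coding exons and 12 in untranslated regions of the representative transcript, and the remaining 16 lay outside that transcript. Of the 69 distant peaks 62 were intronic, 11 of them in intron 1. Their scores were lower than at promoters, with a median of 95.5 and a range from 31.5 to 339.5. A gene-body peak without a promoter peak was found in 20 genes (24.7%, 15.8 to 35.5%), beside 5.44% of all protein-coding genes, a share that is not matched for length. In 19 genes (23.5%) there was neither, beside 43.3% overall. These were 13 collagens, 4 α integrins, 2 β integrins and no laminin. *Lama1* was the sole member with a promoter peak and no body peak, since its peak ended 68 bp before the TSS.

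The strongest intronic peak farther than 3 kb from every TSS is given for each family, on the plus strand of mm10. These are *Col26a1* intron 1 (chr5:136864073-136864221, score 339.5), *Lamb3* intron 3 (chr1:193316103-193316251, 213.5), *Itga11* intron 28 (chr9:62777590-62777738, 188) and *Itgb3* intron 2 (chr11:104626067-104626215, 323). The *Itga10* peak of 234 lay in a 3′ UTR and is not shown. Capitals mark matches to the motifs searched below, which are the CTCF core in *Itga11* and an NKX2-5 core in *Itgb3*, with none in the other two.
Col26a1: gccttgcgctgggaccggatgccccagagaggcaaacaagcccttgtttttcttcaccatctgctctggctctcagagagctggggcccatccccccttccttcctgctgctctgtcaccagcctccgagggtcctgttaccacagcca
Lamb3: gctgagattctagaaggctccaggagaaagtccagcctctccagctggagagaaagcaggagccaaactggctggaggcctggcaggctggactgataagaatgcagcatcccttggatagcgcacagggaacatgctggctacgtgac
Itga11: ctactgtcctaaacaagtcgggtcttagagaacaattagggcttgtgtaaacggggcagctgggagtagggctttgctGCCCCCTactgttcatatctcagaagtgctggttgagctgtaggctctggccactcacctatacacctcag
Itgb3: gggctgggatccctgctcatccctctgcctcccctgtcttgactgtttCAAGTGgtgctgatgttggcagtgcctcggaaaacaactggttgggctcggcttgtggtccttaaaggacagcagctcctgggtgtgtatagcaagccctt

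Short consensus strings were searched on both strands in the 53 promoter peaks, the 69 distant body peaks and the same kinds of peak over all protein-coding genes. A match is a description of the letters and not a bound site. The GC box GGGCGG was in 45.3% of the members' promoter peaks and 50.4% of all promoter peaks. The CTCF core AGGGGGC was in 12 of 53 (22.6%), beside 11.6%, and 2 of the 12 overlapped a GC box. It was found in both *Col27a1* peaks, the shared *Col4a1* and *Col4a2* peak, and at *Lamb1*, *Itga9* and *Itgb4*, among others. The ETS core CCGGAA was in 3 of 53 promoter peaks (5.66%), beside 14.1%. In promoter windows of 300 bases at the GENCODE representative TSS, rather than the RefSeq windows, it was in 4 of 81 (4.94%), beside 18.1%. These counts are small, and the comparison was not matched for CpG content, which differs between members and all genes. The CCAAT box AGCCAAT was in 1.89% beside 7.35%, and the NRF1 string GCATGCGC in 0 of 53 beside 2.47%. The TEAD core GGAATG was in 11.3% beside 5.99%. The TATA box TATAAA, read on the strand of the gene, was in 7.41% of the members' windows and 8.89% of all.

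The only GATA string searched was AGATAA, a core read by cardiac and blood GATA factors. TGATAA, which the *Lamb3* intron 3 sequence above holds, was not counted. The string AGATAA separated the kinds of peak. It was in none of the 53 promoter peaks, which allows a share of up to 6.72%, and in 2.76% of promoter peaks overall. In the distant body peaks it was present in 14 of 69 (20.3%), beside 14.8% overall. Of these 14 peaks, 11 were in 9 collagen genes, 1 in *Lama2* and 2 in β integrin genes. Collagens held 38 of the 69 distant peaks, laminins 11, α integrins 12 and β integrins 8. The *Lama2* peak, of 39.5, lay wholly in sequence masked as repeat in the genome. The strongest of the 14 were in *Col18a1* at 189, *Itgb6* intron 1 at 172, *Col5a1* intron 1 at 163 and *Col4a3* intron 1 at 160.5. The *Itgb6* peak, at chr2:60689097-60689245, is shown as the strongest intronic one, on the plus strand with the match in capitals. It was chosen after its values were seen.
Itgb6: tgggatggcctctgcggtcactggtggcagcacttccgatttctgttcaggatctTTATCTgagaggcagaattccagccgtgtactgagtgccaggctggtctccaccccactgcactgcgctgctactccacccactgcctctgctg
Other strings in the distant peaks were near the overall shares for TEAD (15.9% beside 15.1%), NKX2-5, CAAGTG (9 of 69, beside 11.9%), and AP-1, TGANTCA (7.25% beside 5.66%). The ETS core was in 5 of 69 (7.25%), beside 2.47%, and the CTCF core in 1 (1.45%), beside 6.84%.

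Some peaks in the members sit closer to another gene. Besides the *Usp19*, *Cox6a2* and *Haspin* starts given above, the *Itga1* intron 1 peak of 332.5, higher than the 201.5 at the *Itga1* TSS, lay 439 bp from the TSS of *Pelo*, a ribosome rescue factor gene within that intron. The *Lamb3* peak of 364 was within 3 kb of *G0s2*, which encodes an inhibitor of lipolysis. For 9 of the 121 body peaks the nearest TSS, within 3 kb, was that of another annotated gene, coding or not. At *Col16a1* and *Col4a2* the peak covered the TSSs of both genes.

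Promoter peaks were also counted at genes that build and anchor the same matrix. Of 59 such partner genes, 47 (79.7%, 67.2 to 89.0%) had a promoter peak, beside 51.2% of all protein-coding genes, and the median of their strongest score was 504. Among basement membrane and other matrix partners it was 8 of 10, with *Agrn*, a heparan sulphate proteoglycan, at 892.5, the nidogen *Nid2* at 641, perlecan *Hspg2* at 638 and fibronectin *Fn1* at 504. *Tnc* and *Fbln1* had body peaks alone. Among collagen-processing genes it was 19 of 24, including the prolyl 4-hydroxylase subunits *P4hb* at 1139.5 and *P4ha1* at 1112.5, the collagen glycosyltransferase *Colgalt1* at 849.5 and the chaperone *Serpinh1* at 731. At the lower end of the same list were *Plod1* at 322.5, *Crtap* at 307, *Pcolce* at 242.5, *Adamts2* at 185 and *P4ha3* at 82. Of the lysyl oxidase genes, which cross-link collagen outside the cell, *Loxl3* was at 312, *Loxl1* at 249 and *Lox* at 74, and *Loxl2* and *Loxl4* had none. Among the cytoplasmic integrin adhesome it was 15 of 20, with *Lims1* at 1436.5, vinculin *Vcl* at 1291, *Zyx* at 1156 and talin *Tln1* at 800.5. At the lower end were *Parva* at 323.5, *Ptk2b* at 126.5 and *Fermt3* at 97.5, and *Tln2*, *Fermt1*, *Lims2*, *Parvb* and *Parvg* had no promoter peak. All 5 other laminin receptors had one, with dystroglycan *Dag1* at 1040.5. The lists were compiled by hand, and their CpG content and gene length were not matched to those of the members.

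In the opposite direction, none of the 81 genes had a WT-enriched peak within 3 kb of a TSS or in its body, which allows a share of up to 4.45%. Over all protein-coding genes the shares were 0.0228% and 0.119%, too low for a count of 0 in 81 genes to set them apart.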

How the data were processed

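Per the submitters' processing notes and the study's methods, the authors aligned reads to mm10 with BWA-MEM, called peaks with HOMER 4.10.3, kept differences of at least 2-fold and annotated them with ChIP-Seeker 1.20.0. The deposited signal of a peak, called its score here, is the number of tags that the authors pooled over the libraries of a genotype. It was not compared between the lists. How duplicate reads, multi-mapping reads and the Tn5 offset were treated is not given in the sources used here. Columns with the authors' own fold changes or p-values were not used.

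Distances ran from the nearer edge of a peak to the TSSs of all transcripts of GENCODE M21, and a covered TSS counted as 0. A gene-body peak overlapped the annotated gene by at least 1 base. The representative TSS was that of the APPRIS principal transcript. mm10 and GRCm38 have the same sequence, and all 25745 peaks lay inside its 21 chromosomes. Motifs were searched as fixed strings. Repeats were measured as the share of the 32-base words of a peak that occur elsewhere in the genome. The assignment of peaks and the word counts were tested on simulated data.

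No test was made, since the lists keep no library apart. Counts and medians stand beside those of all protein-coding genes, and genes are not replicates. Members, role lists, partner genes and markers were chosen with earlier results of these data known. Named with values were the members with a promoter peak in each role list, neighbours with a shared start region, the genes with the most body peaks or the highest density per 100 kb, and up to 5 genes per family with body peaks alone. Alternatives were other distances (1 and 10 kb), other sets of TSSs, peak centres, scores of at least the list median of 180.5, unique peaks, merged peaks and other CpG limits. Python 3.11.15, numpy 2.4.6, pandas 2.3.3, scipy 1.17.1, numba 0.67.0 and matplotlib 3.10.9 were used. Some items are not reported here.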

Additional observations from a re-analysis of the deposited data

How the results depend on the processing

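No paired analysis was possible because the lists pool the libraries of each genotype, and for the same reason no replicate could be left out in turn. Of the 42 genes with a promoter peak, 5 lost it at 1 kb, 7 with the representative TSS (*Col9a1*, *Col15a1*, *Lamb3*, *Itga2b*, *Itga5*, *Itgad* and *Itgb6*), 4 with TSSs of coding transcripts, 14 with scores of at least the list median and 0 with peak centres or with peaks of unique sequence. The shares were 45.7% of members and 48.1% of all genes at 1 kb, and 43.2% and 46.8% with the representative TSS. With TSSs of coding transcripts they were 46.9% and 49.6%. Within 10 kb, 31 collagens (70.5%) had a peak, beside 59.6% of all protein-coding genes. With scores of at least the list median, promoter peaks were found at 28 members (34.6%, all genes 45.4%), 12 collagens and 2 β integrins, and body peaks numbered 47 in 35 members (43.2%, all genes 36.7%; 0.521 per 100 kb, all genes 0.936), 19 in 14 collagens, 7 in 5 laminins, 15 in α integrins and 6 in β integrins. Counting only body peaks farther than 3 kb from every TSS left 69, with 38 in collagens, 11 in 6 laminins, 12 in 9 α integrins and 8 in β integrins. Both settings keep fewer peaks by construction. With CpG-rich defined by a ratio of 0.4 alone, 13 of the 34 other members (38.2%, all genes 17.9%) and 61.7% of the CpG-rich members (all genes 72.8%) had a promoter peak. The remaining 88 values that answer a comparison stayed within 1.5 times the main value. Weighting all genes to the members' gene lengths or CpG classes was added after the data had been seen. The methods state a single sequencing depth for all libraries, but the lists keep no depth per library, so its effect on weak peaks was not tested, and whether a gene without a listed peak was open in both genotypes was not tested.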
